A study of Rattus norvegicus with 8 samples.

Results

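Calcium signalling genes were followed through 8 rat prostate arrays. They were 41 genes chosen by name: calmodulins and calmodulin-dependent kinases, calcineurin and its NFAT target, calcium pumps and an exchanger, store and plasma membrane channels, G proteins with their phospholipases C and protein kinases C, and EF-hand binding proteins of the S100 and calbindin families. Muscle-specific isoforms were excluded. Every probe set annotated to exactly 1 of these symbols was taken. Of the 41 genes, 40 had such a probe set (Calm3 was listed with none), and they had 70 of the 31099 probe sets on the array. After a filter on dim probe sets, 58 of the 70 were tested, for 39 genes, among 21729 tested in all. Calb1, the vitamin D-regulated calbindin, had 1 probe set, with an intensity of 0.4 to 1.3 on the 8 arrays, and it did not pass the filter. Of the tested genes, 27 had 1 tested probe set and 12 had several.

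Vinclozolin is an antiandrogenic fungicide. Pregnant Sprague-Dawley females were injected intraperitoneally on gestation days 8 to 14, and males of generation 3, bred from their offspring, were studied. There were 4 groups of 2 arrays: whole ventral prostate at 180 days and prostate epithelium at 45 days, each from a control and a vinclozolin lineage. Each epithelium sample pooled 11 animals, and each whole prostate sample pooled several. The treatment text of every sample, those of the vinclozolin lineage included, names the vehicle DMSO alone, so the lineages are those given in the titles. Age and preparation changed together and cannot be told apart. Against its label, the epithelium carried more signal of smooth muscle markers than whole prostate, a summed intensity of 24200 to 27300 against 8640 to 9060 over 14 genes, and results on the preparations are given beside such markers. Whether the pools of a group shared animals is not stated. The p-values therefore rest on the spread between the 2 pools of a group, part of which may be technical. That spread was estimated over all 4 groups together and drawn toward that of other probe sets.

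As background, most signals that raise cytosolic calcium start at receptors coupled to Gq proteins. These turn on phospholipase C, which makes the messenger IP3, and IP3 opens its receptors on the endoplasmic reticulum. The emptied store is sensed by STIM1, which opens the ORAI1 channel in the plasma membrane, and pumps of the SERCA and PMCA families return calcium to the store or out of the cell. Calmodulin and S100 proteins bind the released calcium and pass the signal on, to kinases or to the phosphatase calcineurin. In the prostate these genes serve contraction of the stroma as well as growth and secretion of the epithelium.

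The lineage comparison asked whether these genes differed between descendants of the vinclozolin and control lines. Values are log2(intensity + 16) after quantile normalisation, so 4 is the floor, and changes are vinclozolin minus control, given with limma's standard error (SE) and n = 2 arrays a group. Where 4 array values of a preparation stand together, the 2 controls come first. A probe set was called at a Benjamini-Hochberg adjusted p under 0.05 over all probe sets tested. No calcium signalling probe set was called in limma's fit, 0 of 58 in whole prostate against 1.74% of all probe sets tested there, and 0 of 58 in epithelium against 0.00920%. At an unadjusted p under 0.05, limma's fit had 8 in whole prostate (13.8% against 18.7% of all) and 5 in epithelium (8.62% against 11.4%). The changes ran from -0.57 to 0.72 in whole prostate and from -0.35 to 0.70 in epithelium, with a median size of 0.19 and 0.16 beside 0.21 and 0.17 over all probe sets. Both ends in whole prostate were on dim probe sets, of Itpr2 (SE 0.37) and Stim1 (SE 0.64). The median SE was 0.17, and the 95% interval lay within -1 and 1 for 51 of 58 probe sets in whole prostate and for 55 in epithelium. For those a change of 1 log2 unit on this scale lay outside the interval. The added 16 shrinks changes of dim probe sets, so for these the interval does not bound the fold change. With a trended, robust prior in limma, 3 were called in whole prostate (Atp2b1 and Calm2 lower, Stim1 higher) and 1 in epithelium (Orai1, higher). Under the other alternatives tried, 0 were called in either.

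**Figure D1:**
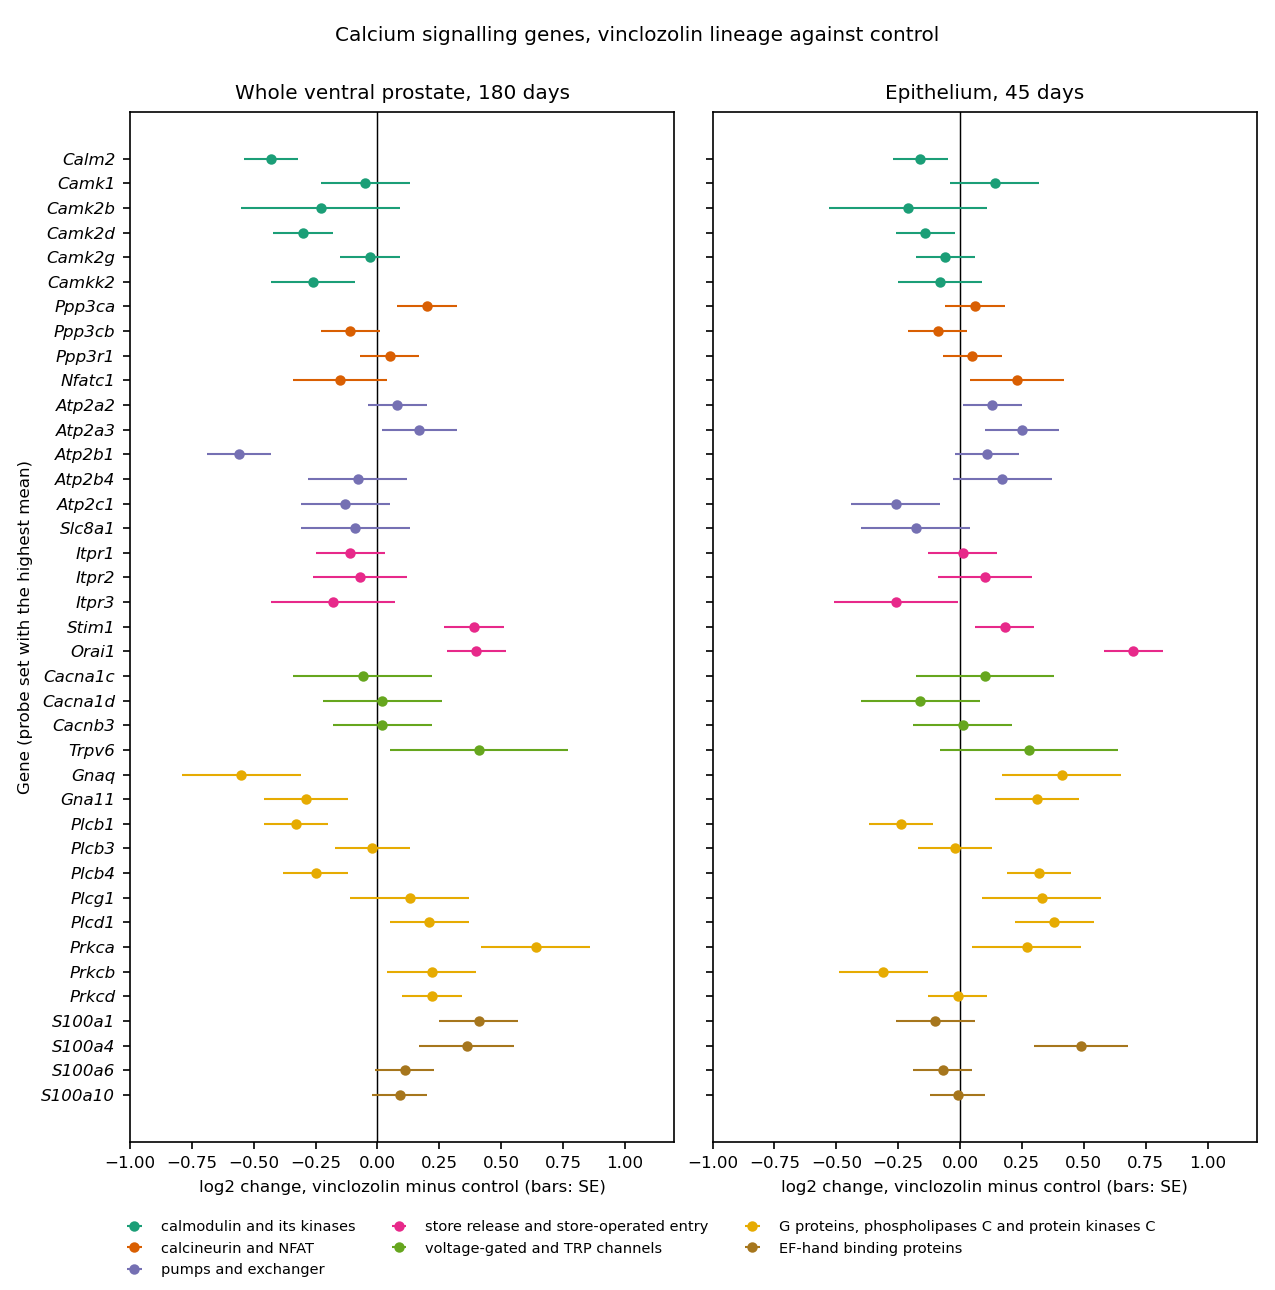
Log2 change, vinclozolin minus control, of the probe set with the highest mean for each of 39 calcium signalling genes, in whole ventral prostate (left) and epithelium (right). Points are limma estimates from 2 arrays a group, bars are 1 SE, and colours give the role. Orai1 has the highest change in epithelium (0.70) and Atp2b1 the lowest in whole prostate (-0.56).

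Orai1 had the lowest p of the 58 probe sets in epithelium. This gene, for the pore of the store-operated channel, read 7.74 and 7.94 on the control epithelium arrays and 8.57 and 8.52 on the vinclozolin ones. In whole prostate it read 7.44 and 7.30 in controls and 7.76 and 7.78 in the vinclozolin lineage. Every vinclozolin array was above both control arrays of its preparation. The change was 0.70 ± 0.12 in epithelium (limma adjusted p = 0.20) and 0.40 ± 0.12 in whole prostate (limma adjusted p = 0.16), and neither passed the test. Stim1, the sensor of store calcium, had 3 tested probe sets. The one with the highest mean read 7.86 and 8.02 in whole prostate controls, 8.36 and 8.30 in the vinclozolin lineage, and 8.10, 8.05, 8.18 and 8.32 on the epithelium arrays. Its groups did not overlap in either preparation, with a change of 0.39 ± 0.12 in whole prostate (limma adjusted p = 0.16) and 0.18 ± 0.12 in epithelium. The other 2 Stim1 probe sets gave -0.01 ± 0.19 and 0.72 ± 0.64 in whole prostate, so its probe sets did not share a sign there. The IP3 receptor genes Itpr1, Itpr2 and Itpr3, which release the store, had 4 probe sets with changes from -0.57 to -0.07 in whole prostate and from -0.26 to 0.10 in epithelium, none called. The -0.57 ± 0.37 was on the dimmer Itpr2 probe set. Its arrays overlapped, with intensities of 24.8 and 27.5 in controls and 26.6 and 5.4 in the vinclozolin lineage. The brighter Itpr2 probe set gave -0.07 ± 0.19.

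Calmodulin and its kinases had a negative change on all 8 tested probe sets in whole prostate, with a median of -0.24, and on 7 of 8 in epithelium, with a median of -0.15. These counts were the same on values as deposited and with median centring, and no probe set passed the test. The size depended on scaling, with a whole prostate median of -0.15 as deposited and -0.21 with median centring. The 8 probe sets were of 6 genes, and the median change over all probe sets was -0.01 in whole prostate and -0.00 in epithelium. The Camk2b probe set and the dimmer ones of Camk2d and Camk2g lay near the floor. Their whole prostate intensities were 18.3 to 27.1, 13.1 to 26.9 and 6.6 to 19. Calm2, 1 of the genes for calmodulin, read 11.85 and 11.76 in whole prostate controls and 11.38 and 11.37 in the vinclozolin lineage. In epithelium it read 11.71 and 11.69 in controls and 11.62 and 11.47 in the vinclozolin lineage. Both vinclozolin arrays lay below both controls in each preparation, with changes of -0.43 ± 0.11 (limma adjusted p = 0.12) and -0.16 ± 0.11. Of its kinases, Camk2d gave -0.30 ± 0.12 in whole prostate, where its arrays did not overlap, and Camk2g gave -0.03 ± 0.12. Camkk2, which activates other kinases of the cascade, gave -0.26 ± 0.17, Camk2b -0.23 ± 0.32 and Camk1 -0.05 ± 0.18.

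Calcineurin, the calmodulin-activated phosphatase, had 9 tested probe sets over Ppp3ca, Ppp3cb (catalytic subunits) and Ppp3r1 (regulatory subunit), and they did not share a direction. Probe set 1368277_at of Ppp3ca read 7.33 and 7.67 in control epithelium and 8.15 and 7.85 in the vinclozolin lineage. Its change there was 0.50 ± 0.18 (limma adjusted p = 0.38), while it read 8.30, 8.18, 7.94 and 8.18 in whole prostate. The brighter Ppp3ca probe set 1373479_at gave 0.06 ± 0.12 in epithelium. Probe set 1379314_at of Ppp3cb read 7.60, 7.62, 7.28 and 7.31 in whole prostate and 7.21, 7.12, 7.03 and 6.61 in epithelium. Its changes were -0.31 ± 0.15 and -0.35 ± 0.15 (limma adjusted p = 0.34 and 0.47), and those of the other 2 Ppp3cb probe sets lay between -0.11 and 0.15. The 3 probe sets of Ppp3r1 gave 0.03 to 0.26 in whole prostate and 0.05 to 0.09 in epithelium. Nfatc1, a transcription factor that calcineurin releases into the nucleus, gave -0.15 ± 0.19 and 0.23 ± 0.19.

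Among the pumps, Atp2b1, the main plasma membrane calcium pump of most cells, had the lowest p of all calcium signalling probe sets in whole prostate. Its brightest probe set, 1370050_at, read 9.41 and 9.42 in controls and 8.89 and 8.83 in the vinclozolin lineage, a change of -0.56 ± 0.13 (limma adjusted p = 0.091). In epithelium it read 9.44, 9.20, 9.35 and 9.51, so the lineages overlapped, and the change was 0.11 ± 0.13. The difference of those changes, 0.67 ± 0.18, had the lowest p of any member for a difference between preparations (limma adjusted p = 0.23) and did not pass. The other Atp2b1 probe sets gave -0.09 ± 0.15 and -0.33 ± 0.16 in whole prostate. Atp2a2, the widespread SERCA2 pump, had 4 tested probe sets with changes from -0.15 to 0.28 in whole prostate and from -0.18 to 0.30 in epithelium. The remaining pumps and the sodium-calcium exchanger Slc8a1 gave -0.37 to 0.17 in whole prostate and -0.26 to 0.25 in epithelium.

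Of the messenger-producing genes, Prkca, a calcium-dependent protein kinase C, read 5.49 and 5.91 in whole prostate controls and 6.62 and 6.07 in the vinclozolin lineage. It read 5.75, 5.76, 6.06 and 5.98 in epithelium. Its vinclozolin arrays were the higher ones in each preparation, with changes of 0.64 ± 0.22 (limma adjusted p = 0.19) and 0.27 ± 0.22, and the whole prostate arrays of the vinclozolin lineage differed from each other by nearly as much as the change. Plcb1, a phospholipase C driven by Gq, read 8.33 and 8.27 in whole prostate controls, 7.90 and 8.04 in the vinclozolin lineage, and 7.33, 7.56, 7.23 and 7.18 in epithelium. The vinclozolin arrays were the lower ones in each preparation, with changes of -0.33 ± 0.13 (limma adjusted p = 0.23) and -0.24 ± 0.13. Its relative Plcb4 gave -0.25 ± 0.13 in whole prostate and 0.32 ± 0.13 in epithelium, where limma's adjusted p was 0.43, and its array values are given with the preparations. Plcd1, a phospholipase C activated by calcium itself, read 7.37, 7.35, 7.53 and 7.60 in whole prostate and 6.99, 7.37, 7.65 and 7.47 in epithelium, with changes of 0.21 ± 0.16 and 0.38 ± 0.16 (limma adjusted p = 0.52 and 0.43). Gnaq and Gna11, the alpha subunits of Gq and G11, had changes of opposite sign in the preparations: -0.55 ± 0.24 and -0.29 ± 0.17 in whole prostate, 0.41 ± 0.24 and 0.31 ± 0.17 in epithelium. The differences of their effects, 0.95 ± 0.34 and 0.59 ± 0.24, did not pass (limma adjusted p = 0.31 and 0.35).

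All 4 tested S100 genes had a positive change in whole prostate, from 0.09 to 0.41, and 3 of 4 a negative one in epithelium, counts that were the same on values as deposited and with median centring. None was called, and the median change over all probe sets was -0.01 in whole prostate and -0.00 in epithelium. S100a4, a small calcium-binding protein found in motile fibroblasts and leukocytes, read 6.01 and 6.33 in control epithelium and 6.46 and 6.85 in the vinclozolin lineage. Its change there was 0.49 ± 0.19 (limma adjusted p = 0.42), beside 0.36 ± 0.19 in whole prostate. S100a1, best known from striated muscle, gave 0.41 ± 0.16 in whole prostate and -0.10 ± 0.16 in epithelium. S100a6 and S100a10, at 12.75 to 13.32 and 11.45 to 11.87 on the 8 arrays, had changes of at most 0.11 in size. The voltage-gated channel genes Cacna1c, Cacna1d and Cacnb3 and the epithelial entry channel gene Trpv6 read 4.71 to 5.98 and had changes of -0.16 to 0.41.

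**Figure D2:**
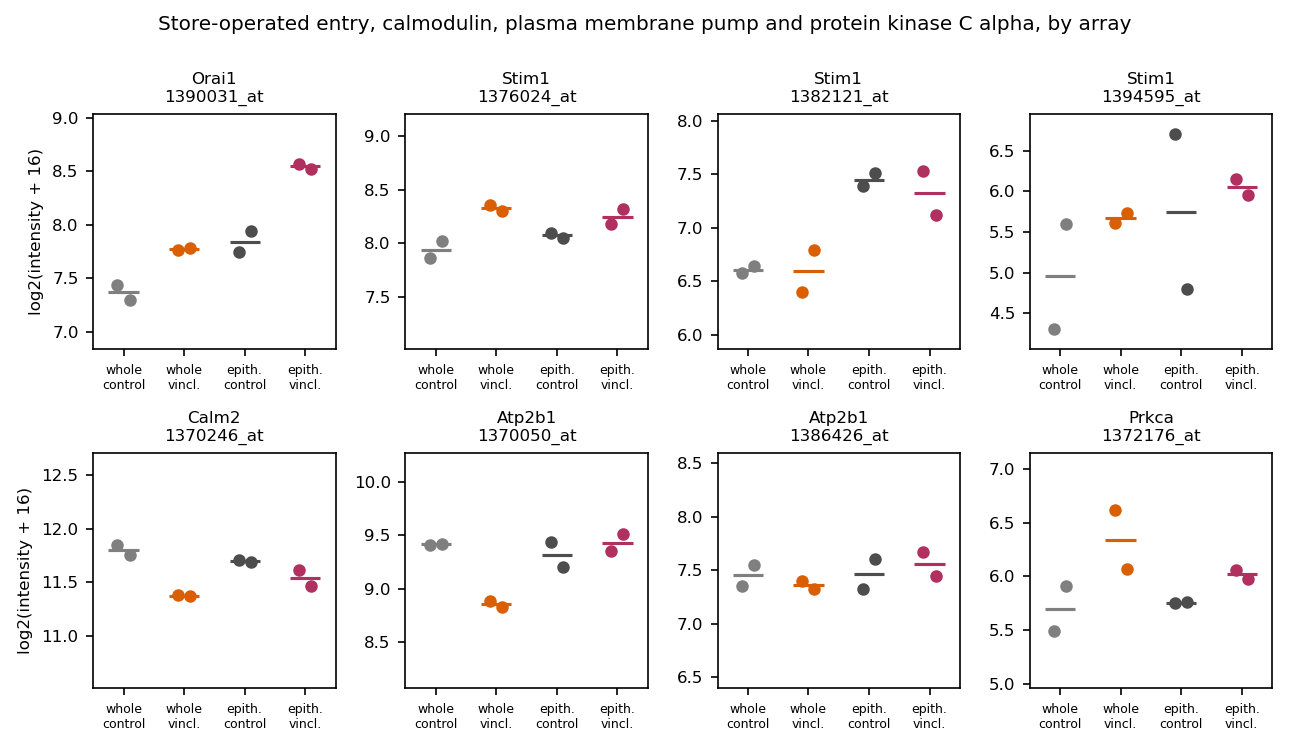
log2(intensity + 16) of each array for 8 probe sets of Orai1, Stim1, Calm2, Atp2b1 and Prkca, in the 4 groups of 2. Points are arrays and lines are group means, and each panel has its own axis. Orai1 reads 8.57 and 8.52 in vinclozolin epithelium and at most 7.94 on the other 6 arrays, and the Stim1 probe set 1394595_at spreads from 4.31 to 6.70.

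The arrays of the lineages did not overlap for 27 of 58 probe sets in whole prostate (46.6%, 12 higher and 15 lower) against 53.9% of all probe sets tested, and for 19 of 58 in epithelium (32.8%, 13 higher and 6 lower) against 39.4%. Both shares lay below those of the array as a whole. In the test of the difference between the preparations' effects, limma's fit called 0 of 58 against 0.290% of all, and 5 had an unadjusted p under 0.05 (8.62% against 13.5%). The difference was estimated less sharply, with a median SE of 0.24, and 38 of 58 intervals lay within -1 and 1. Cell type markers moved with lineage in whole prostate. Of 28 skeletal muscle probe sets, 6 fell (Acta1, Actn3, Myl1, Tnnc2, Tnni2, Tnnt3) and the summed intensity of the 20 genes was 3720 to 3940 in controls and 1970 to 2010 in the vinclozolin lineage. Of 16 leukocyte probe sets, 4 rose (Cd74, Coro1a, Csf1r, Fcgr3a) and 1 fell (Cd52), with a summed intensity over 14 genes of 9300 to 9810 in controls and 8810 to 9190 in the vinclozolin lineage. Unlike that sum, 12 of the 14 genes had a positive change, with a median of 0.62. The called shares were 21.4% for skeletal muscle and 31.2% for leukocyte probe sets, against 1.74% of all tested. Both lists were chosen with earlier results of these data known. No marker gene was under an intensity of 16 on all arrays, and the part of these markers in the changes above was not tested. Fewer cells of a type and less RNA per cell cannot be told apart in these bulk samples.

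Some other genes of the pathway passed the test in whole prostate. Of 115 further calcium genes, 106 were on the array and 79 had 101 tested probe sets. In whole prostate 5 of the 101 rose and 0 fell in limma's fit (4.95% against 1.74% of all), and in epithelium 0 were called. At an unadjusted p under 0.05, limma's fit had 24 in whole prostate (23.8% against 18.7% of all) and 17 in epithelium (16.8% against 11.4%). Their median change was 0.00 and 0.02. The list was chosen with earlier results of these data known, so its shares give no result about calcium genes as a class. The risers were Ocm, Gna14, P2rx4 and both probe sets of Rgs2. Gna14, another Gq-class subunit, read 7.16 and 7.06 in controls and 8.42 and 8.31 in the vinclozolin lineage, a rise of 1.25 ± 0.11 (limma adjusted p = 0.0060). Its other probe set gave 1.00 ± 0.19 (limma adjusted p = 0.056). In epithelium Gna14 read 7.39 and 7.39 in controls and 8.22 and 8.19 in the vinclozolin lineage, a change of 0.82 ± 0.11 that did not pass (limma adjusted p = 0.14) and had the lowest p of the list there. Rgs2, which shuts off Gq, rose by 0.71 ± 0.11 and 0.78 ± 0.12 on its probe sets (limma adjusted p = 0.033 and 0.035), from 11.30 and 11.19 to 11.95 and 11.95 on the brighter one. P2rx4, an ATP-gated calcium-permeable channel, rose by 0.88 ± 0.11 (limma adjusted p = 0.016), from 9.32 and 9.31 to 10.14 and 10.24. Ocm, the EF-hand protein oncomodulin, rose by 2.17 ± 0.12 (limma adjusted p = 0.0014), from 7.88 on both control arrays to at most 10.10. In epithelium the lowest p after Gna14 belonged to Camkk1 (-0.61 ± 0.14), Slc8b1 (0.42 ± 0.10) and Itpkc (-0.53 ± 0.14), none called. With the 4 whole prostate arrays fitted alone, or without any 1 of these arrays, Gna14, P2rx4 and Rgs2 did not pass, while Ocm did. Over the 15 alternatives the call held in 15 for Ocm, 9 each for Gna14 and P2rx4, and 2 and 3 for the Rgs2 probe sets, which also lost it with a pseudocount of 1, with no filter and without any 1 epithelium array.

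More probe sets were called between the preparations than between the lineages. In limma's fit, control epithelium at 45 days against control whole prostate at 180 days called 15 of 58 probe sets (25.9%), in 14 genes, against 27.8% of all tested. Of these 9 were higher and 6 lower in epithelium, against 12.9% and 15.0% of all. The vinclozolin lineage gives another comparison on other arrays, added after the first had been seen. It called 16 of 58 (27.6%) in 15 genes, against 27.4% of all, 12 higher and 4 lower, against 13.1% and 14.2%. Called in both lineages in the same direction were 12 probe sets of 11 genes (20.7%), 9 higher and 3 lower, against 17.2% of all. These shares were near those of the array as a whole, and give no result about calcium signalling genes as a class. The direction split depended on scaling: on values as deposited it was 13 higher and 5 lower in each lineage, and with median centring it was 7 higher and 11 lower in controls and 10 and 9 in the vinclozolin lineage. Over all called probe sets, the higher share in controls was 46.3% with quantile normalisation, 53.8% as deposited and 28.9% with median centring, and in the vinclozolin lineage 47.9%, 56.2% and 32.5%. Median centring moved the median of all probe sets by -0.14 in controls and -0.11 in the vinclozolin lineage.

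Markers of several cell types moved with the preparation. Smooth muscle markers, with the sums given above, were higher in epithelium on 14 of 21 probe sets in each lineage and lower on 0. Fibroblast markers (9 genes) summed to 3030 to 3290 in whole prostate and 10200 to 11000 in epithelium, with 11 of 13 probe sets higher in controls. Basal epithelial markers (8 genes) summed to 789 to 851 and 3740 to 3940, with 8 of 11 higher. Luminal markers (11 genes) summed to 20500 to 20800 and 22600 to 24100, with 3 of 11 higher and 2 lower. Skeletal muscle markers (20 genes) summed to 1970 to 3940 and 7980 to 9370, with 9 of 28 probe sets higher and 9 lower in controls and 11 higher and 2 lower in the vinclozolin lineage, and Acta1 was 7.25-fold and 12.5-fold higher. Endothelial markers (7 genes) summed to 257 to 273 and 621 to 732, with 3 of 7 higher in controls and 4 in the vinclozolin lineage. Leukocyte markers were lower on 8 of 16 probe sets and higher on 1 in controls, and lower on 12 and higher on 1 in the vinclozolin lineage. Their summed intensity (14 genes) was not lower in control epithelium, at 9200 to 10600 against 9300 to 9810 in control whole prostate. In the vinclozolin lineage it was 7900 to 7930 in epithelium against 8810 to 9190. Pbsn, the androgen-driven secretory protein of the rat prostate, read 12.66 to 13.04 on all 8 arrays. The part of these markers in the calcium gene differences was not tested.

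**Figure D3:**
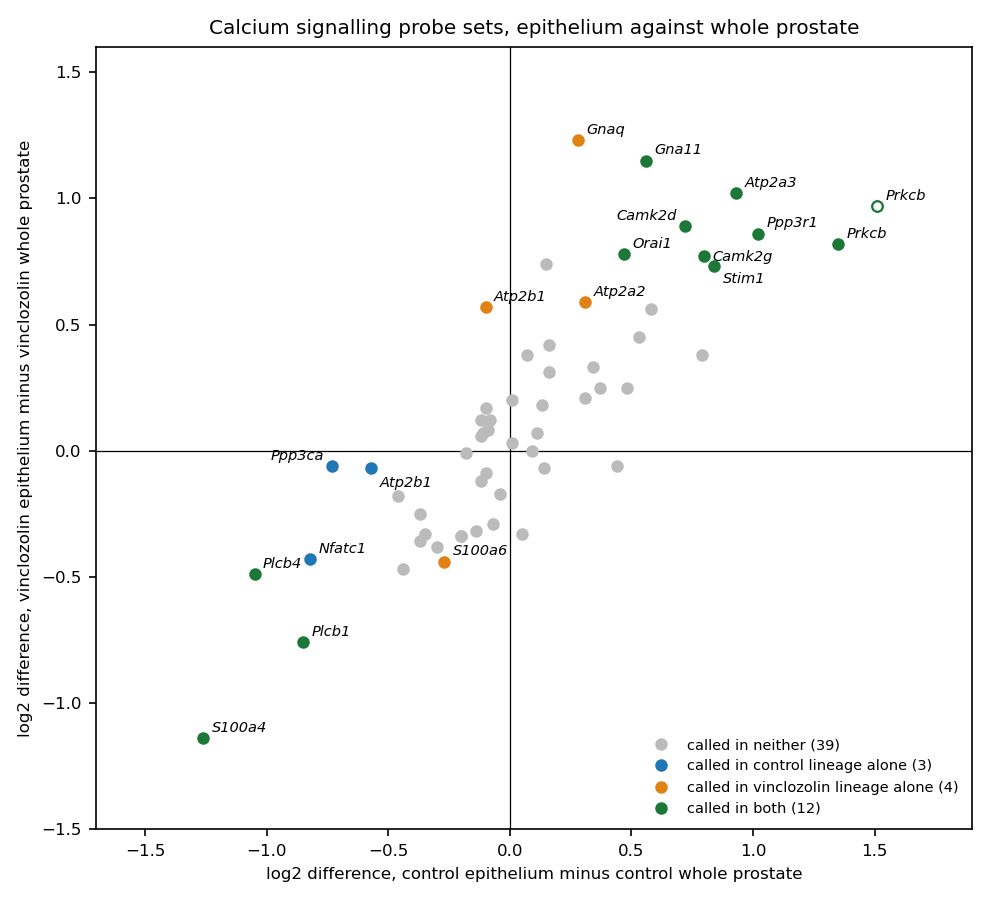
Log2 difference, epithelium minus whole prostate, of the 58 calcium signalling probe sets in the control lineage (horizontal) and in the vinclozolin lineage (vertical), from limma with 2 arrays a group. Colour gives the lineages in which a probe set was called, and 12 were called in both. The open circle is a Prkcb probe set near the floor in whole prostate, whose position depends on the added 16, and S100a4 is the lowest point (-1.26 and -1.14).

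The 4 genes Atp2a3, Camk2g, Plcb1 and S100a4 were called in both lineages under all 14 alternatives, and Orai1 was called in both lineages with the settings used here. Their promoter sequences are shown because these genes differed in opposite directions between the preparations. Each is the 250 bases before the annotated start in RefSeq's GRCr8 assembly, 5′ to 3′ on the gene's strand, in lower case with GC boxes (GGGCGG on either strand, overlapping matches included) in capitals. GC boxes are the letters bound by Sp1-class factors. The 3 higher in epithelium came from chr10:58080402-58080651, plus strand (Atp2a3), chr15:3553106-3553355, plus strand (Camk2g), and chr12:39209031-39209280, minus strand (Orai1).
Atp2a3: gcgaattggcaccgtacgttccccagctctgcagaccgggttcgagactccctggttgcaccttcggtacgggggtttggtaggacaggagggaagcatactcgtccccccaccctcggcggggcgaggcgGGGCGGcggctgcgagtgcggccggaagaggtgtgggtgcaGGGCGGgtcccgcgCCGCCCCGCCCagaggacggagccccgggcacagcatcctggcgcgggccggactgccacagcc
Camk2g: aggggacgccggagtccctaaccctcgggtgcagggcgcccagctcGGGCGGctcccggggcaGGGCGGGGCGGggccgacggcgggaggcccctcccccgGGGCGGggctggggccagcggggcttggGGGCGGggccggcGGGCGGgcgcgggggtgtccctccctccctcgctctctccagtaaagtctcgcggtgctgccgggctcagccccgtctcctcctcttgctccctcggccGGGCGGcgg
Orai1: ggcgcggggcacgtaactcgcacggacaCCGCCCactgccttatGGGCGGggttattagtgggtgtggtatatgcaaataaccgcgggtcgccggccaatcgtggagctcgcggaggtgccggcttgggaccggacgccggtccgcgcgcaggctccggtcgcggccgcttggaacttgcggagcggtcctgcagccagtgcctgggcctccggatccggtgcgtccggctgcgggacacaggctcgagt
The 2 lower in epithelium came from chr3:142512515-142512764, plus strand (Plcb1), and chr2:178388279-178388528, plus strand (S100a4).
Plcb1: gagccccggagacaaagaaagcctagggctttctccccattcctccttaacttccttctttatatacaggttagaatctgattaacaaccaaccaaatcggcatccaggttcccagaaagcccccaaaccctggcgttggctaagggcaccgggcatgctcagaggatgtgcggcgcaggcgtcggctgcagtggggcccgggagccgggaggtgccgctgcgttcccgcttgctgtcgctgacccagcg
S100a4: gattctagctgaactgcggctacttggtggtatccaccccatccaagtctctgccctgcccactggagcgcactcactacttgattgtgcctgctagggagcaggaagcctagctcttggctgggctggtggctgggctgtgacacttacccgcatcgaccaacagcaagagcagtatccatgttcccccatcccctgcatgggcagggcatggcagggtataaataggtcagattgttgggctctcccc
The first 3 hold 4, 7 and 2 GC boxes and 27, 30 and 33 CG dinucleotides, and the last 2 hold 0 GC boxes with 15 and 4 CG dinucleotides. The genes shown were picked after their values were seen, and the split does not extend to Plcb4, lower in epithelium in both lineages, whose window holds 7 GC boxes and 46 CG dinucleotides. Of the 40 genes on the array, 33 had an entry in the promoter table, and Calm2, Camkk2, Prkcb, S100a1, S100a10, Calb1 and Nfatc1 did not. A GC box was in 24 of 33 windows (72.7%), against 58.3% of 9536 genes with a tested probe set and 32.4% of all 27457 RefSeq promoters. The median was 28 CG dinucleotides, against 16 and 6. The core of the NFAT motif (GGAAA, either strand) was in 12 of 33 (36.4%), against 53.6% and 56.7%, and the half-site of the androgen response element (TGTTCT, either strand) in 3 of 33 (9.09%), namely Camk1, Itpr1 and Trpv6, against 10.9% and 17.1%. A match is a run of letters and not a bound site.

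Of 12 probe sets of the pumps and exchanger, 1 was higher and 1 lower in control epithelium, and 3 and 0 in the vinclozolin lineage. Of 8 of store release and entry, 2 were higher and 0 lower in each lineage. Over all probe sets, 12.9% were higher and 15.0% lower in controls, and 13.1% and 14.2% in the vinclozolin lineage. Atp2a3, the SERCA3 pump that is typical of epithelial and blood cells, read 5.71 and 5.46 in whole prostate controls, 5.91 and 5.60 in the whole prostate vinclozolin lineage, 6.55 and 6.49 in control epithelium and 6.83 and 6.71 in vinclozolin epithelium. All 4 epithelium arrays were above all 4 whole prostate arrays. The difference was 0.93 ± 0.15 (1.91-fold) in controls and 1.02 ± 0.15 (2.02-fold) in the vinclozolin lineage. Of Atp2a2, 1 of 4 probe sets, 1398862_at, was called in the vinclozolin lineage (0.59 ± 0.14), from 7.66 and 7.77 in whole prostate to 8.21 and 8.41, and not in controls (0.31 ± 0.14), where it read 7.68 and 7.73 in whole prostate and 8.14 and 7.89 in epithelium. Orai1, with the array values given above, was higher by 0.47 ± 0.12 in controls (limma adjusted p = 0.032) and by 0.78 ± 0.12 in the vinclozolin lineage (limma adjusted p = 0.0059). The control call held in 6 of 14 alternatives and that of the vinclozolin lineage in 14. Stim1 was called on 1 of 3 probe sets, 1382121_at, by 0.84 ± 0.19 and 0.73 ± 0.19. That probe set read 6.58, 6.64, 6.40 and 6.79 in whole prostate and 7.39, 7.51, 7.53 and 7.12 in epithelium, while the brighter 1376024_at gave 0.14 ± 0.12 and -0.07 ± 0.12.

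Of the 8 calmodulin and kinase probe sets, 2 were higher in epithelium in both lineages, those of the delta and gamma chains of calmodulin-dependent kinase II. Camk2g read 6.90, 6.91, 6.99 and 6.75 in whole prostate and 7.76, 7.65, 7.67 and 7.61 in epithelium, a difference of 0.80 ± 0.12 (1.74-fold) in controls and 0.77 ± 0.12 in the vinclozolin lineage. Camk2d read 7.99, 7.96, 7.67 and 7.67 in whole prostate and 8.58, 8.82, 8.52 and 8.59 in epithelium, or 0.72 ± 0.12 and 0.89 ± 0.12. The epithelium arrays lay above the whole prostate arrays without overlap for both genes. Each had a second, dimmer probe set that was not called, at 0.58 ± 0.23 for Camk2d and 0.09 ± 0.47 for Camk2g in controls. Calm2, which feeds these kinases, differed by -0.10 ± 0.11 and 0.17 ± 0.11, and Camk2b, the chain best known from brain, by -0.37 ± 0.32 and -0.36 ± 0.32.

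Of 10 calcineurin and NFAT probe sets, 1 was higher and 2 lower in control epithelium, and 1 and 0 in the vinclozolin lineage. Ppp3r1 was higher on 1369152_at, which read 6.55, 6.07, 6.43 and 6.72 in whole prostate and 7.18, 7.50, 7.44 and 7.43 in epithelium, by 1.02 ± 0.20 and 0.86 ± 0.20. Its brightest probe set gave -0.12 ± 0.12 in both lineages and its dimmest -0.35 ± 0.18 and -0.33 ± 0.18, so the gene's probe sets disagreed. In controls Ppp3ca was lower on 1368277_at, at -0.73 ± 0.18 (limma adjusted p = 0.025) and Nfatc1 lower, at -0.82 ± 0.19 (limma adjusted p = 0.023). Nfatc1 read 6.23, 6.36, 6.14 and 6.15 in whole prostate and 5.73, 5.23, 5.87 and 5.55 in epithelium. In the vinclozolin lineage they gave -0.06 ± 0.18 and -0.43 ± 0.19 and were not called. The difference between lineages is the same quantity as the difference of lineage effects between preparations, and it did not pass for either gene (0.68 ± 0.25 and 0.38 ± 0.27, limma adjusted p = 0.33 and 0.60).

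Of 12 probe sets of messenger-producing genes, 3 were higher and 2 lower in control epithelium, and 4 and 2 in the vinclozolin lineage. Prkcb, a protein kinase C abundant in lymphocytes and brain, read 6.63, 6.66, 7.09 and 6.64 in whole prostate and 7.86, 8.14, 7.67 and 7.70 in epithelium on its brighter probe set. It was higher in epithelium by 1.35 ± 0.18 (2.56-fold) in controls and 0.82 ± 0.18 (1.77-fold) in the vinclozolin lineage. Its second probe set, 1368240_a_at, was also called in both lineages, but its whole prostate intensities were 1.9 to 14.4, near the floor, against 44.0 to 55.9 in epithelium, so it passed the filter through epithelium and the size of its difference cannot be read. The remaining one, 1397189_at, was too dim to be tested, with intensities of 0.5 to 3.9 in whole prostate and 13.3 to 15.6 in epithelium. Gna11 read 5.88, 5.76, 5.60 and 5.46 in whole prostate and 6.50, 6.25, 6.50 and 6.87 in epithelium, higher by 0.56 ± 0.17 and 1.15 ± 0.17. The control call of Gna11 held in 4 of 14 alternatives and that of the vinclozolin lineage in 14. Gnaq read 5.47, 5.39, 5.21 and 4.56 against 5.56, 5.86, 5.97 and 6.26, and was called in the vinclozolin lineage (1.23 ± 0.24, limma adjusted p = 0.012) and not in controls (0.28 ± 0.24). Its whole prostate intensities were 7.4 to 24, near the added 16, so the size of its differences depends on that setting. Over the alternatives the difference in the vinclozolin lineage ran from 0.91 to 1.99.

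The phospholipases Plcb1 and Plcb4 were lower in epithelium. Plcb1, whose array values are given above, had differences of -0.85 ± 0.13 (1.81-fold) in controls and -0.76 ± 0.13 (1.70-fold) in the vinclozolin lineage. On its brighter probe set Plcb4, a phospholipase C first known from retina and brain, read 10.30, 10.14, 9.86 and 10.08 in whole prostate and 9.22, 9.11, 9.45 and 9.52 in epithelium. The differences were -1.05 ± 0.13 (2.07-fold) and -0.49 ± 0.13, whose calls held in 14 and 6 of 14 alternatives, and its dimmer probe set was not called (-0.12 ± 0.14 and 0.12 ± 0.14). Without overlap, every epithelium array was below every whole prostate array for both genes. Plcb3, Plcg1, Plcd1, Prkca and Prkcd were called in neither lineage, with differences from -0.33 to 0.12.

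S100a4 had the most negative difference of the 58 probe sets in both lineages. It read 7.57 and 7.29 in whole prostate controls, 7.88 and 7.70 in the whole prostate vinclozolin lineage and 6.01 to 6.85 in epithelium. The differences were -1.26 ± 0.19 (2.40-fold) in controls and -1.14 ± 0.19 (2.20-fold) in the vinclozolin lineage. S100a6, a bright S100 gene of many dividing cells, read 13.17, 13.20, 13.32 and 13.26 in whole prostate and 12.90, 12.94, 12.75 and 12.96 in epithelium. It was called in the vinclozolin lineage (-0.44 ± 0.12), a call that held in 6 of 14 alternatives, and not in controls (-0.27 ± 0.12). As deposited, the control intensities were 7814.6 and 8299.1 in whole prostate and 8381.7 and 8641.5 in epithelium. The sign of the control difference therefore depended on scaling. Of Atp2b1, 1397224_at was lower in controls (-0.57 ± 0.16), at 6.05 and 6.10 against 5.67 and 5.34, and gave -0.07 ± 0.16 in the vinclozolin lineage, where it read 5.85 and 5.64 in whole prostate and 5.56 and 5.80 in epithelium. That control call held in 2 of 14 alternatives. Its brightest probe set gave -0.10 ± 0.13 and 0.57 ± 0.13 and was called higher in the vinclozolin lineage, so the pump's probe sets did not share a direction. None of the 7 probe sets called in a single lineage passed the test of the difference between lineages. The voltage-gated and TRP channels and the IP3 receptors had no call in either lineage.

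**Figure D4:**
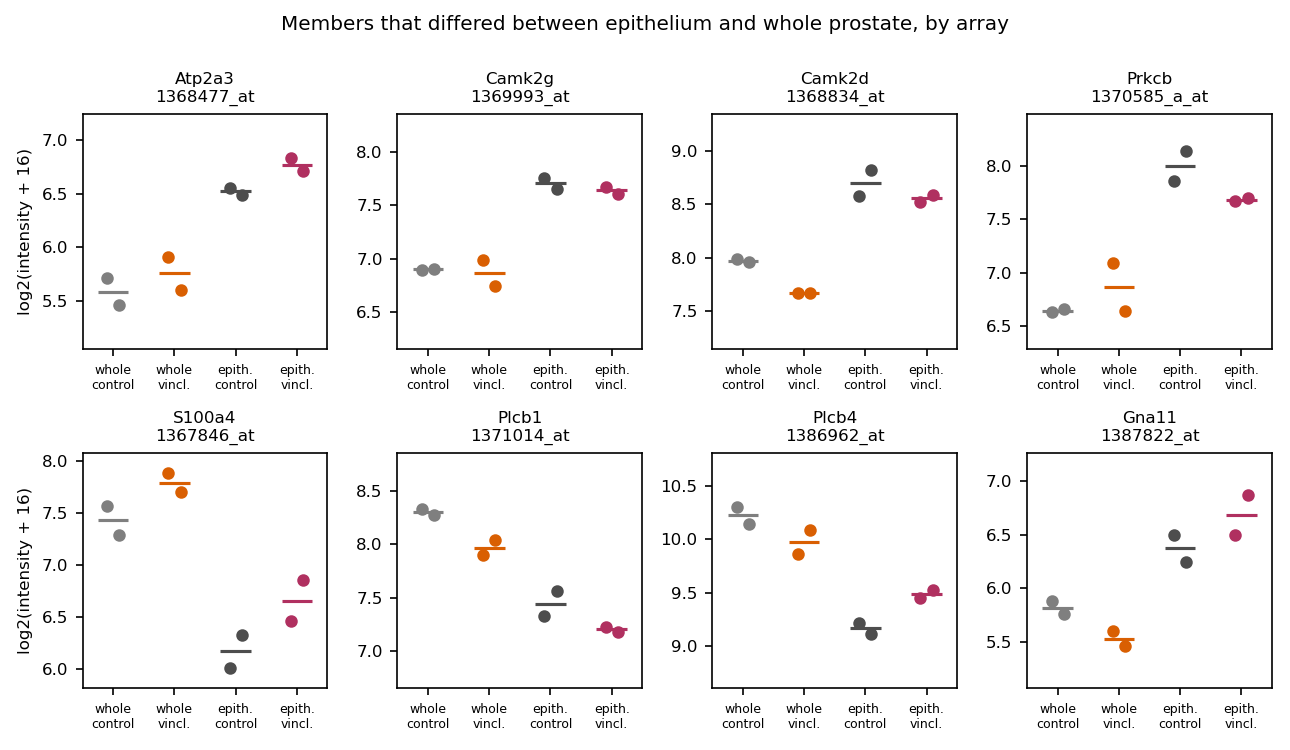
log2(intensity + 16) of each array for 8 calcium signalling probe sets called in both lineages between epithelium and whole prostate. Points are arrays and lines are means of the 2 arrays of a group, and each panel has its own axis. Atp2a3, Camk2g, Camk2d, Prkcb and Gna11 are higher in all 4 epithelium arrays, and S100a4, Plcb1 and Plcb4 are lower.

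Across the arrays, 28.3% to 36.8% of probe sets had an intensity under 16. Arrays of a group correlated at a Spearman coefficient of 0.952 to 0.972 across probe sets, which are not independent replicates, and no 2 arrays were identical. The number of arrays, 2 a group, limits the precision of every value above. Leaving out whole prostate control replicate 1 or 2 or epithelium control replicate 2 took the control calls from 15 to 9, 7 and 9, and leaving out any other array kept 12 to 15. Leaving out an array took the vinclozolin lineage's 16 calls to 11 to 16.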

How the data were processed

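Total RNA of pooled prostates was labelled with biotin for Affymetrix arrays, per the labels' protocols. The authors deposited linear intensity values per probe set (software not given in the sources used here). Each array has a 2% trimmed mean of 125 intensity units, while array medians ranged from 28.7 to 38.7. Groups came from the titles.

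The 57 control probe sets were left out, log2(intensity + 16) was taken, and arrays were quantile normalised. Probe sets whose mean on this scale was below percentile 30 were then dropped. The added 16 understates changes of dim probe sets. Group means of all 8 arrays were fitted with limma 3.58.1 in R 4.3.3 (4 residual degrees of freedom, estimated prior 2.62), with Benjamini-Hochberg adjustment over 21729 probe sets. The fit was tested on simulated data. Comparisons were vinclozolin against control in each preparation, the difference of these, and epithelium against whole prostate in each lineage. Alternatives were another pseudocount, scaling, filter, prior or set of arrays, a replicate block, and leaving out each array.

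The 70 member probe sets, named by the platform annotation, all matched RefSeq by Entrez identifier with the same symbol. Members and lists were chosen with earlier results of these data known. Members with a call and the 6 of lowest p in each vinclozolin comparison were named with every array, as were called genes of the other lists, up to 6 in each. Promoters, read with Python 3.11.15, were compared with tested genes after the shares over all promoters had been seen. Plots were drawn with matplotlib 3.10.9.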

Additional observations from a re-analysis of the deposited data

Results flagged for a closer look

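Ocm, a calcium gene outside the 41, had effects that differed between the preparations by test. Its vinclozolin minus control change was 2.17 ± 0.12 in whole prostate and -0.45 ± 0.12 in epithelium, and the difference of -2.62 passed in limma's fit (adjusted p = 0.0054). It did not pass with the replicate block (limma adjusted p = 0.13) or without whole prostate control replicate 1 or 2 or vinclozolin replicate 1 (limma adjusted p = 0.066, 0.076 and 0.052). The difference kept its sign in all 14 alternatives, from -2.72 to -2.52.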

How the results depend on the processing

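The 49 named changes were recomputed 703 times, and 569 stayed on the same side of the threshold, 130 lost a call, 4 gained one and 0 changed sign. With a trended, robust prior, calls among calcium signalling probe sets went from 0 to 3 in whole prostate, 1 in epithelium and 2 for the difference of effects, beside 1814, 205 and 540 over all probe sets. Over all probe sets, whole prostate calls went from 379 to 235 with a pseudocount of 1, 200 with no filter, 65 with its 4 arrays alone and 32 with the replicate block. Epithelium calls went from 2 to 1 with median centring and 0 with a pseudocount of 1, no filter, its 4 arrays alone or the block. Those for the difference went from 63 to 40 with a pseudocount of 1, 32 with no filter and 5 with the block. Nothing stated that same-numbered samples pair. Their deviations correlated at 0.003 in whole prostate and 0.029 in epithelium. With 1 difference a group, this cannot decide whether the samples were paired. With the replicate block, member calls between preparations went from 16 to 10 in the vinclozolin lineage and from 15 to 11 in controls. Leaving out 1 array gave 26 to 220 calls in whole prostate, 0 in epithelium, 5 to 18 for the difference, 2661 to 5751 between control preparations and 3366 to 6024 in the vinclozolin lineage over all probe sets. Among members it gave 0, 0, 0, 7 to 15 and 11 to 16. A group left with 1 array was assumed to vary like the others. The cause of these shifts was not tested, beyond the smaller number of arrays or the larger number of probe sets in some alternatives. Dim probe sets, such as those of Calb1 and the voltage-gated channels, lie near the floor, where a change cannot be read.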
